A study of Mus musculus with 6 samples.

Results

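The genes described here are 42 mouse genes of sterol and fatty acid synthesis and of their control by SREBP and LXR, measured by RNA-Seq after acute depletion of YME1L, an ATP-dependent protease of the mitochondrial inner membrane. A row of the count table was taken as a member where its gene name, split at commas, was on a list of 18 cholesterol pathway genes, 10 fatty acid synthesis genes and 14 regulators and genes of uptake and efflux. Each of the 42 genes had a row among the 51499 loci, and all 42 were among the 14499 loci that passed the filter on low counts. WT mouse embryonic fibroblasts (MEFs) received a control siRNA (Scr) or siRNA against *Yme1l* and were harvested 72 h later, with 3 cultures per group. Both groups carry the same WT genotype, but the methods name several WT MEF lines, among them clones from *Yme1l* loxP/loxP animals, and which line was used for this experiment is not given in the sources used here. The methods describe immortalization with SV40 large T antigen and the sample labels 3T3 immortalization, and neither says whether 1 siRNA or a pool was used. According to the methods, each replicate of a MEF experiment was a separate culture.

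The libraries held between 37260605 and 45205207 counts. The unit of levels is CPM (counts divided by the TMM-scaled library size, times 1e6), and differences are given as the log2 fold change of Yme1l siRNA over Scr. *Yme1l1*, the targeted gene, fell from 170, 171 and 171 CPM in the Scr cultures to 31.6, 23.4 and 45.04 CPM in the Yme1l siRNA cultures. Its log2 fold change was -2.36 ± 0.20 (SE, n = 3 per group; adjusted p = 3.87e-05 by the quasi-likelihood test of edgeR with Benjamini-Hochberg adjustment, which gave every adjusted p below). Of all loci tested, 29.6% were called lower and 28.4% higher at an adjusted p under 0.05, and their median log2 fold change was 0.01. A change in a bulk sample can come from fewer cells that express a gene or from less RNA per cell, and these cannot be told apart here.

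Cells build cholesterol from acetyl-CoA through the mevalonate pathway, and fatty acids from the same precursor. SREBP2, encoded by *Srebf2*, activates mainly the sterol genes and SREBP1, encoded by *Srebf1*, mainly the fatty acid genes. Both are made as precursors in the membrane of the endoplasmic reticulum, where SCAP carries them to the Golgi apparatus for cleavage when sterols are low, and INSIG proteins hold SCAP back when sterols are high. The liver X receptors (LXRs, encoded by *Nr1h2* and *Nr1h3*) are nuclear receptors for oxysterols that activate genes of cholesterol export.

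Promoter sequences are shown for 5 genes whose falls are among the largest of their groups. The printed letters of *Hmgcs1*, *Msmo1* and *Srebf2* include sequences to which SREBP and the CCAAT-binding factor NF-Y are known to bind. Those of *Insig1* and *Abca1* include, of the sequences searched for, only one to which E-box factors are known to bind. All are from RefSeq on GRCm38.p6, 5′ to 3′ on the strand of the gene. Capitals mark matches, on either strand, to TCACNCCAC or its shorter part TCACNCCA (forms of the sterol element), to CACGTG (an E-box) and to CCAAT, which reads ATTGG on the other strand. Elements for LXR were not searched for, so lower case letters do not mean that such an element is absent. Bases that GENCODE M21 places in an exon of the gene were left out, except for *Msmo1*, for which only the 30 bases around the sterol element match are given. The windows are chr13:119690151-119690350 for *Hmgcs1*, chr8:64733730-64733759 for *Msmo1*, chr15:82147069-82147180 for *Srebf2*, chr5:28071212-28071362 for *Insig1* and chr4:53159896-53160095 for *Abca1*. The genes of *Msmo1* and *Abca1* lie on the minus strand and the others on the plus strand.
Hmgcs1: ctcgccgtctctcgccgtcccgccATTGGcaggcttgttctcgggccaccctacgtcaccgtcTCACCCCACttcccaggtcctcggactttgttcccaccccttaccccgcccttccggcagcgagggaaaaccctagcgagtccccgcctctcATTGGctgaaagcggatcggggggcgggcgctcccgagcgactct
Msmo1: attcTCACTCCAtccgcgcagCCAATgact
Srebf2: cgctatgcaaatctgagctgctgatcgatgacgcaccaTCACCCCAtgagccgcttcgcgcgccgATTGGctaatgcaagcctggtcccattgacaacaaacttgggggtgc
Insig1: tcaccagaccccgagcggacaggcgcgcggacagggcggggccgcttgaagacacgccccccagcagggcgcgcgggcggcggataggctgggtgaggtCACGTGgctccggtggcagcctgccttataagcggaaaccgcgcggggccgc
Abca1: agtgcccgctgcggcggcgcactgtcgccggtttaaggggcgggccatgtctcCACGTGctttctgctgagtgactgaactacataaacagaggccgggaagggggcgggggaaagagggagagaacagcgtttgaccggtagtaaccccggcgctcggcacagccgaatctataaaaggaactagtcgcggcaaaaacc

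Over the window from 250 bases before to 50 bases after the RefSeq start, 33 of the 42 members had a sequence, as did 27025 genes in all. The CCAAT box was the match that the cholesterol pathway genes shared most widely. It was found in 14 of the 15 cholesterol pathway genes with a sequence (93.33%), in 3 of 7 fatty acid synthesis genes, in 7 of 11 regulators and uptake and efflux genes, and in 41.06% of all genes. TCACNCCAC was found in *Hmgcs1* alone among the members and in 1.44% of all genes, and its shorter part TCACNCCA in *Hmgcs1*, *Msmo1* and *Srebf2* and in 4.97% of all genes. CACGTG was found in *Hsd17b7*, *Sc5d*, *Dhcr7*, *Scap*, *Insig1* and *Abca1* and in 8.09% of all genes. A further sterol element, ATCA and CCAC separated by 2 bases, was found in *Acly* alone among the members and in 0.83% of all genes. In *Hmgcs1*, the sterol element match begins 137 bases before the start, between CCAAT boxes that begin 176 and 45 bases before it. In *Srebf2*, the match begins 162 bases before the start and a CCAAT box 135 bases before it. These matches describe letters in a window and were not tested for binding.

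Most of the 42 genes were lower after YME1L depletion. Of the members, 31 were called lower, 4 higher and 7 neither, against the 29.6% and 28.4% of all loci. The fall reached at least 2-fold for 12 members, and 7.28% of all loci were called lower by that much. In 31 members every Yme1l siRNA culture lay below every Scr culture, as did 33.6% of all loci, and in 4 members every one lay above, as did 31.9% of all loci. The median log2 fold change of the 42 genes was -0.58, with a range from -2.98 to 1.05, beside the median of 0.01 over all loci. The median was -0.78 for the cholesterol pathway, -0.43 for fatty acid synthesis and -0.10 for the regulators and genes of uptake and efflux, and differences between these groups were not tested. The last median runs over members of both directions and varied between analyses, from -0.35 among well-counted loci (a mean of 50 counts or more) to -0.04 with library totals, with -0.16 without Scr 3.

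**Figure D1:**
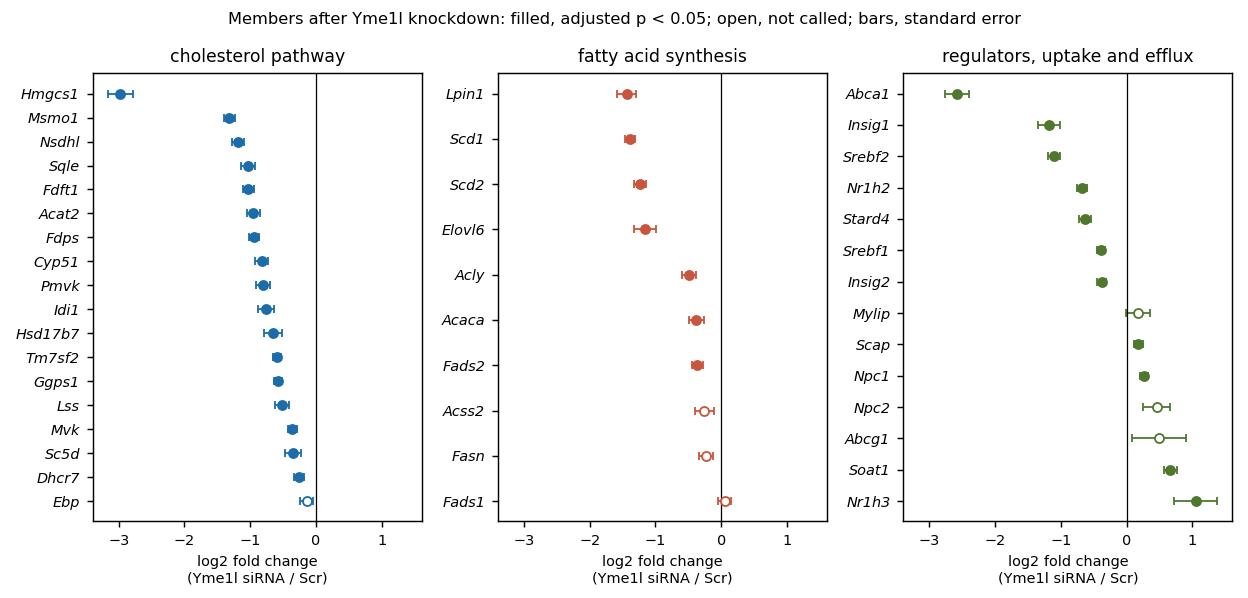
Log2 fold change (x axis, Yme1l siRNA over Scr) of each member (y axis), in 3 panels for the member groups; points are edgeR estimates, bars their standard errors, filled points have an adjusted p under 0.05 and open points do not. All 18 cholesterol pathway genes lie left of 0, from *Hmgcs1* at -2.98 to *Ebp* at -0.14, whereas the regulators run from *Abca1* at -2.58 to *Nr1h3* at 1.05.

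In the cholesterol pathway, 17 of 18 genes fell, none rose and *Ebp* was not called, beside 29.6% of all loci called lower. Those 17 include *Fdps* and *Tm7sf2*, which are counted at loci joined with other genes. At least 2-fold falls were seen in 5 genes, namely *Hmgcs1*, *Msmo1*, *Nsdhl*, *Fdft1* and *Sqle*. In 16 genes every Yme1l siRNA culture lay below every Scr culture, as did 33.6% of all loci. The fall was largest in *Hmgcs1* (chr13:119690379-119708260), the cytosolic synthase that makes HMG-CoA, the precursor of mevalonate. Its levels were 357, 378 and 240 CPM in the Scr cultures and 41.2, 34.3 and 48.4 CPM in the Yme1l siRNA cultures. The lowest Scr culture was thus well above the highest Yme1l siRNA culture, although Scr 3 stood below the other Scr cultures. The log2 fold change was -2.98 ± 0.19 (SE, adjusted p = 1.24e-05), a fall of 87.3%.

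The other members with the smallest adjusted p in this group act after squalene or lead to it. *Msmo1*, a sterol methyl oxidase that acts on the methyl groups of lanosterol products, was measured at 131, 136 and 113 CPM in Scr and at 49.4, 49.4 and 53.7 CPM after *Yme1l* siRNA. *Nsdhl*, the dehydrogenase that follows it in demethylation, was at 39.4, 39.6 and 34.2 CPM in Scr and at 16.8, 15.4 and 17.5 CPM. The groups of both genes were far apart compared with the spread within them, with log2 fold changes of -1.32 ± 0.09 (adjusted p = 1.37e-05) and -1.19 ± 0.09 (adjusted p = 2.19e-05). *Fdft1*, squalene synthase, which commits farnesyl diphosphate to sterols, was at 136, 138 and 115 CPM in Scr and at 64.4, 61.7 and 64.5 CPM, a log2 fold change of -1.03 ± 0.09 (adjusted p = 3.27e-05). *Fdps*, which makes farnesyl diphosphate, is counted at a locus joined with *Gm43738* and *Rusc1*, which was at 159, 155 and 144 CPM in Scr and at 74.2, 78.4 and 84.7 CPM. The log2 fold change of that joined locus was -0.95 ± 0.08 (adjusted p = 3.05e-05), and the share of *Fdps* in it cannot be read from the counts.

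The other steps of the first part of the pathway, in its order, were as follows. *Acat2*, the thiolase that joins acetyl-CoA units, had a log2 fold change of -0.95, and the mevalonate kinases *Mvk* and *Pmvk* had -0.36 and -0.80. *Idi1*, the isomerase of isopentenyl diphosphate, had -0.76, and *Ggps1*, which makes geranylgeranyl diphosphate for protein prenylation and is a branch away from sterols, had -0.58. *Sqle*, the squalene epoxidase that is a rate-limiting step of the sterol branch, had -1.03 ± 0.10, with 374 to 437 CPM in Scr and 180 to 225 CPM after *Yme1l* siRNA. Each of these 6 genes had groups that did not overlap.

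Among the enzymes that turn squalene epoxide into cholesterol, *Lss*, which closes the ring system to lanosterol, had a log2 fold change of -0.52 and *Cyp51*, lanosterol demethylase, -0.83. *Tm7sf2*, a sterol reductase, is counted at a locus joined with *Gm28374*, *Vps51* and *Zfpl1*, and that locus had -0.59. *Hsd17b7*, the ketoreductase of the demethylation complex, had -0.65. The last enzymes changed least: *Dhcr7*, which makes cholesterol itself from its immediate precursor, had -0.25 ± 0.07 (adjusted p = 0.0157), *Sc5d*, a sterol desaturase, -0.34 ± 0.12 (adjusted p = 0.0388), and *Ebp*, a sterol isomerase, -0.14 ± 0.10 (adjusted p = 0.24). The *Sc5d* groups overlapped, since Yme1l siRNA 2 at 95.6 CPM lay above Scr 3 at 91.7 CPM, and its call was lost in 8 of 15 other analyses, among them those without Scr 1 (-0.34), Scr 2 (-0.26), Yme1l siRNA 1 (-0.33) or Yme1l siRNA 3 (-0.26). The call of *Dhcr7* was lost in 4 of the 15, including those without Scr 1 (-0.21) or Yme1l siRNA 1 (-0.25). *Ebp* was called at -0.23 without Yme1l siRNA 2 (adjusted p = 0.0423) and was at -0.08 without Yme1l siRNA 3.

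**Figure D2:**
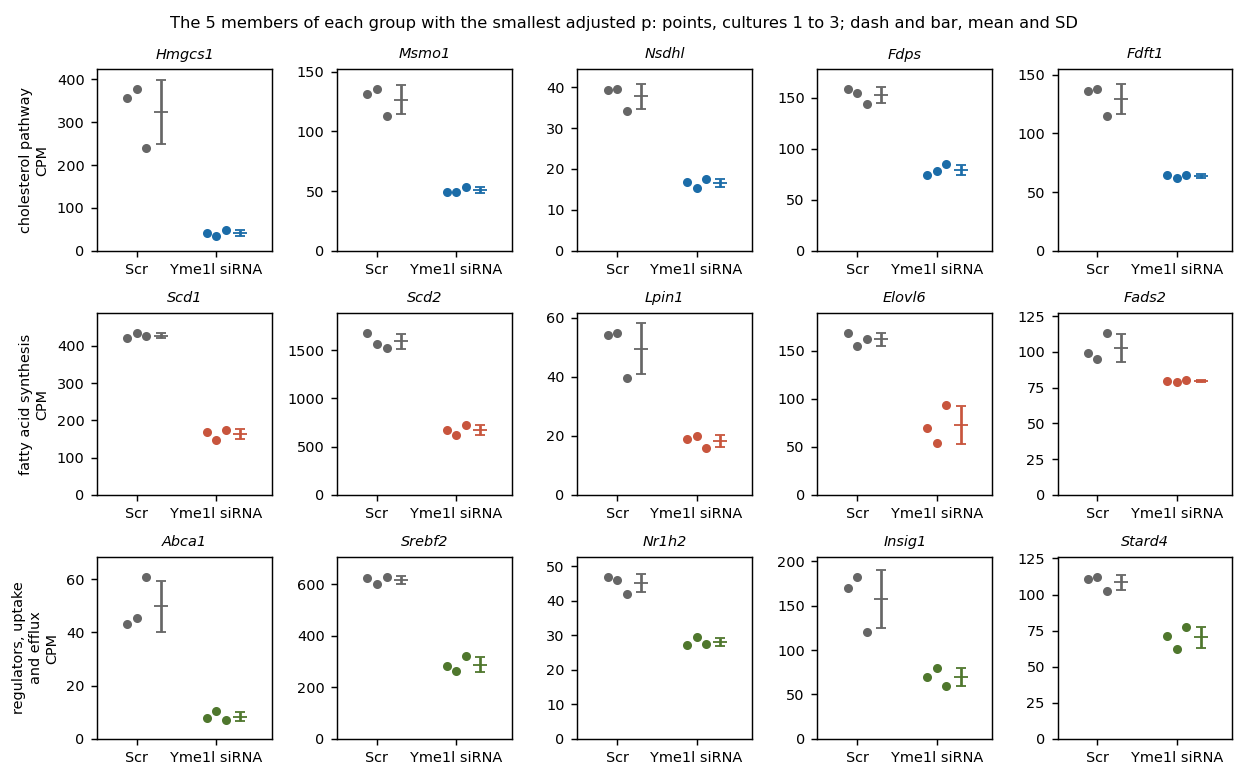
CPM (y axis, from 0) in each culture for the 5 members of each group with the smallest adjusted p; points are cultures 1 to 3 from left to right, and the dash and bar beside them are the mean and SD (n = 3). In all 15 panels every Yme1l siRNA culture lies below every Scr culture, and *Hmgcs1*, *Lpin1*, *Abca1* and *Insig1* show the widest Scr spread relative to their means.

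In fatty acid synthesis, 7 of 10 genes fell, none rose and 3 were not called, beside 29.6% of all loci called lower. The fall was at least 2-fold for 4 genes, which desaturate or elongate fatty acids (*Scd1*, *Scd2*, *Elovl6*) or act in glycerolipid synthesis (*Lpin1*). *Scd1* and *Scd2*, neighbours on chromosome 19, encode stearoyl-CoA desaturases, which make monounsaturated fatty acids. *Scd1* was at 420, 435 and 426 CPM in Scr and at 168, 148 and 173 CPM after *Yme1l* siRNA, and *Scd2*, the member with the most counts, was at 1683, 1566 and 1529 CPM and at 677, 621 and 727 CPM. The spread within each group was small beside these falls, with log2 fold changes of -1.39 ± 0.08 (adjusted p = 7.67e-06) for *Scd1* and -1.24 ± 0.09 (adjusted p = 1.66e-05) for *Scd2*. The transcripts of these genes are alike over a stretch of 623 bases with 95.506% identity, and how reads that match both were counted is not given in the sources used here.

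*Lpin1*, a phosphatidate phosphatase, was at 54.3, 55.0 and 39.6 CPM in Scr and at 19.0, 19.9 and 15.9 CPM after *Yme1l* siRNA, with a log2 fold change of -1.44 ± 0.14 (adjusted p = 6.83e-05). *Elovl6*, the elongase that extends palmitate to stearate, was at 169, 155 and 162 CPM in Scr and at 69.7, 54.2 and 93.6 CPM, a log2 fold change of -1.16 ± 0.17 (adjusted p = 0.000552). The Yme1l siRNA cultures of *Elovl6* were uneven, with culture 3 highest and culture 2 lowest, but all were below the Scr cultures. *Fads2*, a desaturase of polyunsaturated fatty acids, was at 99.4, 95.02 and 113 CPM in Scr and at 79.8, 79.1 and 80.5 CPM, a log2 fold change of -0.36 ± 0.08 (adjusted p = 0.00471).

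The genes that make palmitate itself changed less than those that fell at least 2-fold, and differences between genes were not tested. *Acly*, ATP citrate lyase, which supplies cytosolic acetyl-CoA, had a log2 fold change of -0.49 ± 0.11 (adjusted p = 0.00498), and *Acaca*, the acetyl-CoA carboxylase that makes malonyl-CoA, had -0.38 ± 0.12 (adjusted p = 0.022), a call lost when Scr 3 was left out (-0.33, adjusted p = 0.0691). Without Yme1l siRNA 2, *Acaca* was at -0.25 (adjusted p = 0.0313). *Fasn*, fatty acid synthase, was not called at -0.23 ± 0.10 (adjusted p = 0.0815). Its Scr cultures lay between 477 and 501 CPM and its Yme1l siRNA cultures at 403, 361 and 478 CPM, so that culture 3 of the knockdown reached the Scr range, and without it *Fasn* was called at -0.35 (adjusted p = 0.00522), whereas without Yme1l siRNA 2 it was at -0.14 (adjusted p = 0.231). *Acss2*, which makes acetyl-CoA from acetate, was not called at -0.26 (adjusted p = 0.175), with under 5 CPM in all libraries and a value of -0.16 without Scr 3. *Fads1*, the desaturase encoded beside *Fads2*, was not called at 0.05 ± 0.10 (adjusted p = 0.674), with Scr cultures from 194 to 202 CPM within the range of the Yme1l siRNA cultures, 175 to 232 CPM, and its value was -0.035 without Yme1l siRNA 2 and 0.15 without Yme1l siRNA 3.

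The regulators and the genes of uptake and efflux moved in both directions: 7 of 14 fell, 4 rose and 3 were not called. The 4 that rose are near the 28.4% of all loci called higher, and 29.6% of all loci were called lower. The number that rose was 2 without Scr 2, Scr 3 or Yme1l siRNA 2, and 6 without Yme1l siRNA 3. *Abca1* (chr4:53030787-53159895), the transporter that exports cholesterol to apolipoproteins and a known LXR target, fell most. It was at 43.0, 45.3 and 60.9 CPM in Scr and at 7.67, 10.3 and 6.91 CPM after *Yme1l* siRNA, a log2 fold change of -2.58 ± 0.18 (adjusted p = 1.67e-05) and a fall of 83.3%. *Abcg1*, the other sterol exporter on the list, had between 14 and 41 counts per library and was not called at 0.50 ± 0.41 (adjusted p = 0.33), with 0.09 without Yme1l siRNA 2, 0.30 without Scr 1 and 0.80 without Yme1l siRNA 3, so its counts resolved only large changes.

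*Srebf2* (chr15:82147181-82205379) was at 624, 599 and 629 CPM in Scr and at 281, 261 and 320 CPM after *Yme1l* siRNA, a log2 fold change of -1.10 ± 0.09 (adjusted p = 2.63e-05). *Srebf1* fell by less, from 113, 115 and 114 CPM to 88.8, 89.3 and 83.6 CPM, at -0.39 ± 0.06 (adjusted p = 0.00107). The groups of both genes did not overlap, and whether their changes differ was not tested. *Insig1*, which retains SCAP and is itself a known SREBP target, was at 170, 183 and 120 CPM in Scr and at 69.9, 80.2 and 59.0 CPM, a log2 fold change of -1.18 ± 0.17 (adjusted p = 0.000453). Scr 3 was again the lowest Scr culture, and without it the value was -1.34. *Insig2* was lower at -0.38 ± 0.07 (adjusted p = 0.00174), while *Scap* was higher at 0.18 ± 0.07 (adjusted p = 0.0479), a call lost in 7 of 15 other analyses, among them those without Scr 1 (0.19), Scr 2 (0.18), Scr 3 (0.15), Yme1l siRNA 1 (0.17) or Yme1l siRNA 2 (0.16).

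The LXR genes moved in opposite directions at very different levels. *Nr1h2*, which encodes LXRβ, was at 46.9, 46.0 and 42.04 CPM in Scr and at 27.2, 29.4 and 27.6 CPM after *Yme1l* siRNA, a log2 fold change of -0.68 ± 0.07 (adjusted p = 0.000105). *Nr1h3*, which encodes LXRα, had 26, 15 and 19 counts in Scr and 39, 63 and 31 counts after *Yme1l* siRNA, and was called higher at 1.05 ± 0.33 (adjusted p = 0.0236). That call rests on few counts and was lost in 4 of 14 other analyses, including those without Scr 2 (0.95), Scr 3 (0.99) or Yme1l siRNA 2 (0.72).

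The genes of sterol uptake, transfer and storage were divided. *Stard4*, a soluble sterol carrier, was at 111, 112 and 103 CPM in Scr and at 71.4, 62.3 and 77.1 CPM after *Yme1l* siRNA, a log2 fold change of -0.63 ± 0.09 (adjusted p = 0.000495). *Soat1*, which esterifies cholesterol for storage, was higher in every Yme1l siRNA culture than in every Scr culture. It was at 58.4, 62.7 and 64.4 CPM in Scr and at 99.9, 110 and 84.6 CPM after *Yme1l* siRNA (0.67 ± 0.10, adjusted p = 0.000632). *Npc1*, the lysosomal membrane protein of cholesterol egress, was called higher at 0.26 ± 0.06 (adjusted p = 0.00778). Its soluble partner *Npc2* was not called at 0.46 ± 0.20 (adjusted p = 0.0842), with 309, 301 and 205 CPM in Scr and 396, 451 and 272 CPM after *Yme1l* siRNA, where culture 3 was lowest in both groups. *Npc2* was called higher in 5 of 15 other analyses, among them an edgeR fit blocked by replicate number (adjusted p = 0.0013). *Mylip*, a ubiquitin ligase of lipoprotein receptors, was not called at 0.17 ± 0.18 (adjusted p = 0.434). With 1 library left out, *Npc2* ranged from 0.29 without Scr 3 to 0.64 without Yme1l siRNA 3, where it was called (adjusted p = 0.00887). *Mylip* ranged from 0.04 without Yme1l siRNA 2 to 0.35 without Yme1l siRNA 3, where it was called (adjusted p = 0.045), with 0.08 without Scr 3 and 0.27 without Scr 1.

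**Figure D3:**
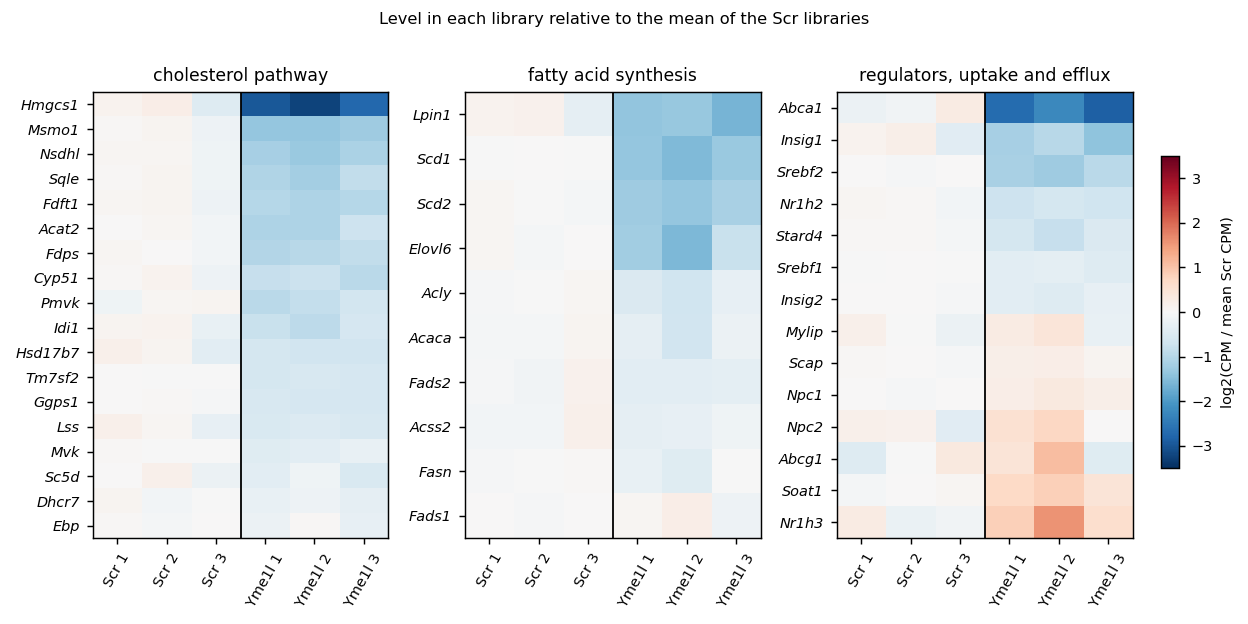
Level of each member (rows) in each library (columns, Scr 1 to 3 and Yme1l siRNA 1 to 3) as the log2 of its CPM over the mean CPM of the Scr libraries, in colour from blue (lower) to red (higher). The cholesterol pathway panel is blue in all Yme1l siRNA libraries, with mean values of -0.87, -0.87 and -0.81, and the third panel holds both colours.

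The cultures of a group did not move evenly, and the unevenness had a different pattern in each set of genes. On the scale of log2 CPM relative to the Scr mean, the cholesterol pathway genes averaged 0.06, 0.06 and -0.14 in Scr 1, 2 and 3 and -0.87, -0.87 and -0.81 in Yme1l siRNA 1, 2 and 3. Scr 3 was the lowest Scr library for 14 of these 18 genes, as it was for 39.3% of all loci. Fatty acid synthesis averaged 0.00, -0.03 and 0.02 in Scr and -0.69, -0.80 and -0.61 after *Yme1l* siRNA. Here Scr 3 was lowest for 2 of 10 genes, whereas Yme1l siRNA 2 was lowest of its group for 7 (37.8% of all loci) and Yme1l siRNA 3 highest for 8 (38.7% of all loci). The regulators and genes of uptake and efflux averaged 0.01, 0.00 and -0.04 in Scr and -0.27, -0.11 and -0.46 after *Yme1l* siRNA. The averages over all loci tested, with 0.5 CPM added, stayed between -0.03 and 0.01 in the 6 libraries.

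Levels can be compared between genes only per transcript length, as in the FPKM values that the authors deposited for each group, which pool its 3 libraries and carry no error here. Of the 37 members with 1 row in that table, 28 had a lower FPKM in the Yme1l siRNA group. The share over all genes of that table was not computed. *Fdps*, *Tm7sf2*, *Scd2*, *Srebf1* and *Nr1h3* did not have 1 row and are not in this comparison. Among the 37 members, in the Scr group *Acly* (187 FPKM), *Sqle* (154 FPKM), *Insig2* (130 FPKM) and *Srebf2* (124 FPKM) stood highest, followed by *Hmgcs1* (103 FPKM). After *Yme1l* siRNA *Hmgcs1* stood at 13.4 FPKM, *Sqle* at 75.2 FPKM, *Srebf2* at 57.6 FPKM and *Acly* at 133 FPKM, so that *Hmgcs1* lost its place near the top. *Abca1* was low on this scale in both groups, at 4.77 and 0.865 FPKM. For *Insig2* (130 and 136 FPKM) and *Sc5d* (39.6 and 39.9 FPKM) the FPKM was not lower although the counts fell.

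**Figure D4:**
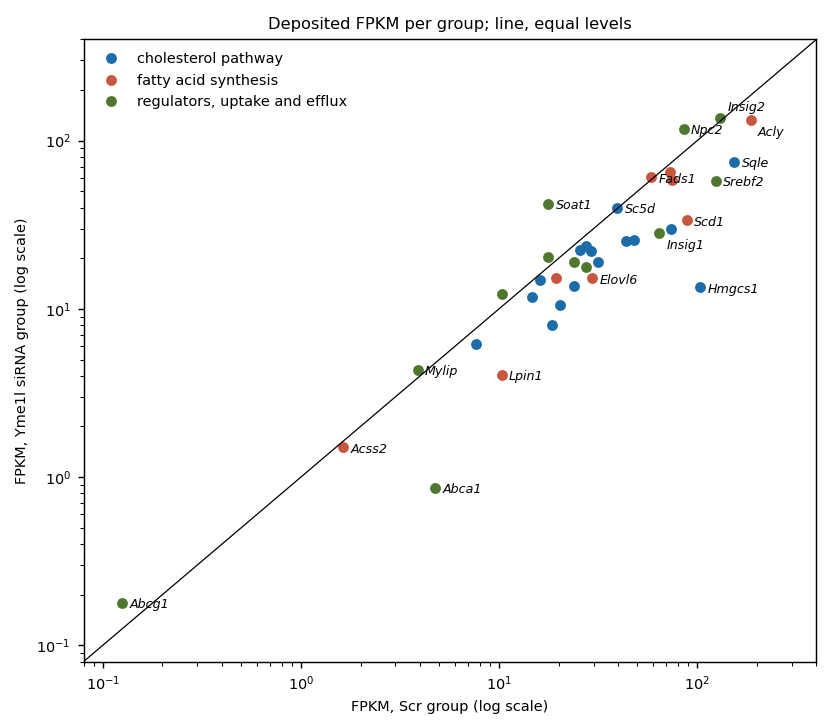
FPKM deposited by the authors for the Scr group (x axis) and the Yme1l siRNA group (y axis), both on log scales, for the 37 members with 1 row; each point is a gene, coloured by member group, and the line marks equal levels. *Hmgcs1* (103 and 13.4 FPKM) and *Abca1* (4.77 and 0.865 FPKM) lie farthest below the line and *Soat1* (17.7 and 42.3 FPKM) farthest above it.

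Other genes of the same pathways, taken as a list of 84, were called about as often in each direction. *Faxdc2* had no row, and *Ch25h*, *Mlxipl* and *Cd36* were too low to test. Of the 80 that were tested, 30 were called higher, 29 lower and 21 neither, with a median log2 fold change of 0.01, beside the 28.4% of all loci called higher and 29.6% called lower. The counts of the lists by function are descriptions, and several lie near those shares. By function, 2 of 8 genes of SREBP cleavage and retention were higher and 4 lower, and 4 of 8 further sterol enzymes were higher and 3 lower. The isoprenoid branches to dolichol, ubiquinone and prenylated proteins had 5 of 12 higher and 3 lower, the oxysterol enzymes 1 of 4 higher and 2 lower, and the sterol ester and transport genes 4 of 14 higher and 7 lower. The LXR partners and targets had 2 of 6 higher and 2 lower. The lower ones were the partners *Rxra* (-0.36) and *Rxrb* (-0.33). Of the targets, *Apoe* (1.43, 14 to 81 counts per library) and *Lpl* (0.42, with overlapping groups) were higher. *Lpcat3* (0.09) and *Pltp* (-0.43) were not called. The further fatty acid and glycerolipid genes had 12 of 28 higher and 8 lower. Among the called genes, *Mbtps2*, *Rnf139*, *Fntb*, *Hsd3b7* and *Acsl3* are counted at loci joined with other gene names. Their own share in those loci cannot be read from the counts.

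Genes on that list that were called, changed by 2-fold or more and reached a log2 CPM of 1 on average numbered 8. *Soat2*, the second cholesterol esterification enzyme, rose with *Soat1*: it was at 0.716, 1.08 and 1.78 CPM in Scr and at 11.9, 11.8 and 7.48 CPM after *Yme1l* siRNA, a log2 fold change of 3.12 ± 0.32 (adjusted p = 8.82e-05). *Lbr*, the lamin B receptor, which has the same sterol reductase activity as *Tm7sf2*, was higher at 1.38, whereas the joined locus of *Tm7sf2* was lower. *Elovl4*, an elongase of very long fatty acids, was higher at 2.03, *Dgat2*, a triglyceride synthase, at 1.04 and *Pdss1*, which starts the ubiquinone side chain, at 1.07. *Cyp27a1*, a mitochondrial sterol hydroxylase that makes an oxysterol, was lower at -1.49, *Gpam*, the mitochondrial acyltransferase that starts glycerolipid synthesis, at -1.25 and *Erlin2*, a protein of the endoplasmic reticulum that takes part in the retention of SREBP, at -1.01. *Ch25h*, a hydroxylase that also makes an oxysterol, had 0, 0 and 1 counts in Scr and 8, 5 and 5 counts after *Yme1l* siRNA.

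Summed levels of marker lists for fibroblasts and for other cells differed between the groups. Of 9 fibroblast markers tested, 8 were lower, among them *S100a4*, which is counted at a locus joined with *Gm42674* and *S100a3*. The summed level of the list was 35142 to 42348 CPM in Scr and 18883 to 23465 CPM after *Yme1l* siRNA. *Thy1*, a fibroblast surface marker, had at most 3 counts in every library. Of 8 adipocyte markers, *Adipoq*, *Plin1*, *Cidec*, *Lep* and *Cfd* had at most 3 counts in every library, *Fabp4* was higher at 1.48 (means of 1.303 and 3.62 CPM), *Pparg* was not called at 0.07 (adjusted p = 0.802), *Retn* was too low to test, and the summed level was 2.77 to 4.94 CPM and 5.98 to 6.79 CPM. Macrophage and leukocyte markers summed to 193 to 208 CPM in Scr and 273 to 286 CPM after *Yme1l* siRNA. Of the 4 tested, *Csf1r* was higher at 0.74, with means of 123 and 205 CPM, and *Lyz2* (-0.34), *Cd68* (-0.13) and *Cd14* (0.08) were not called, while *Ptprc*, *Adgre1* and *Itgam* were at or under 3 counts. Epithelial markers summed to at most 0.222 CPM in Scr and 1.33 CPM after *Yme1l* siRNA, with *Krt5*, *Krt14* and *Cldn4* at or under 3 counts. Of the epithelial list only *Krt8* was tested, and it was higher at 4.45 (adjusted p = 7.63e-05). It had 1 count in each Scr library and 24, 31 and 23 counts after *Yme1l* siRNA. Endothelial markers summed to at most 4.08 CPM in Scr and 7.85 CPM after *Yme1l* siRNA, with *Tie1* and *Emcn* at or under 3 counts. *Kdr* was higher at 2.57, from 3, 9 and 7 counts to 43, 43 and 38 counts. *Tek* was higher at 0.61, and *Pecam1* was not called at 0.47. The part of these shifts in the changes of the members was not tested.

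How the counting treated strand and reads with several matches is not given in the sources used here, which touches some members. *Hmgcs1*, *Idi1*, *Ggps1*, *Fdft1*, *Lss*, *Cyp51*, *Acss2*, *Acaca*, *Elovl6*, *Srebf1*, *Scap*, *Insig2*, *Nr1h3*, *Npc1* and *Soat1* overlap a gene on the other strand. *Acat2* is 97.7% identical to *Acat3* over 1477 bases and 98.7% identical to *Tcp1* over 445 bases. *Acat3* itself was lower, from 1.57, 1.86 and 0.877 CPM in Scr to 0.180, 0.460 and 0.237 CPM after *Yme1l* siRNA. *Acaca*, *Fdps*, *Idi1*, *Fdft1*, *Ggps1* and *Elovl6* have near-identical copies among transcripts named as predicted genes. The values of all these genes are uncertain to that extent.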

How the data were processed

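RNA-Seq was performed on WT MEFs 72 h after transfection with Scr or Yme1l siRNA (3 cultures each). Per the methods, poly(A)-selected, stranded libraries were sequenced from both ends, and the authors mapped reads to mm10 with HISAT2 2.0.4, assembled transcripts with StringTie 1.3.3 and compared groups with Cuffdiff 2.2.1. The first table holds raw counts per locus as deposited by the authors, without normalization; the counting program is not given in the sources used here. The FPKM values deposited by the authors are 1 level per group, with its libraries pooled. The fold changes, statistics, p-values and q-values of that table are the authors' own comparison and were not used. All per-sample columns were mapped to a sample, and 0 were left over.

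Counts were analysed with edgeR 4.0.16 in R 4.3.3: filterByExpr (minimum count 10, total 15), TMM scaling and the quasi-likelihood test over 14499 loci, with Benjamini-Hochberg adjustment and a threshold of 0.05. No covariate was used. The biological coefficient of variation was 0.131, and scale factors lay between 0.958 and 1.03. The standard error is the size of the log2 fold change divided by the square root of F. Of the loci tested, 398 join several gene names. Pairs of libraries of a group differed beyond counting noise (chi-square per degree of freedom 9.70 to 69.9), so none was counted as a repeat. DESeq2 1.42.0, limma-voom (limma 3.58.1), a replicate block, other scale factors, filters and thresholds, and fits without each library in turn were alternatives. The scripts were tested on simulated data.

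The members and all gene lists were chosen with earlier results of these data known. Every member was accounted for, and the 5 with the smallest adjusted p in each group are given per library. Other pathway genes are named if called, changed by 2-fold or more and at a log2 CPM of 1 or more on average. *Ch25h* and the LXR partners and targets are named in any case. A library at or under 3 counts is taken as at the floor. Promoters (RefSeq, GRCm38.p6) were searched on both strands, gene positions are from GENCODE M21, and copies of at least 95% identity over at least 200 bases were found with BLAST 2.17.0. Figures were drawn with matplotlib 3.10.9.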

Additional observations from a re-analysis of the deposited data

How the results depend on the processing

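Over 15 alternatives, 32 of the 42 members kept their direction and their side of the threshold, and 10 did not under at least 1 of them (*Ebp*, *Sc5d*, *Dhcr7*, *Acaca*, *Fasn*, *Fads1*, *Scap*, *Nr1h3*, *Mylip* and *Npc2*). The numbers of members called lower stayed within 1.5 times the reported ones. The number called higher was 4, all among the regulators and genes of uptake and efflux. In that group and in the members as a whole, it was 2 at an adjusted p under 0.01. With 1 library left out it lay between 2 (without Scr 2, Scr 3 or Yme1l siRNA 2) and 6 (without Yme1l siRNA 3). The median log2 fold change of that group was -0.35 when loci averaging under 50 counts were dropped, so that fewer genes were tested. *Fads1*, not called in any analysis, ranged from -0.035 (without Yme1l siRNA 2) to 0.15 (without Yme1l siRNA 3) with 1 library left out.

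*Npc2* was called higher by DESeq2 (0.46, adjusted p = 0.0186), with library totals (0.53, adjusted p = 0.0437), with all loci of at least 1 count (0.45, adjusted p = 0.0292) and without Yme1l siRNA 3 (0.64, adjusted p = 0.00887). *Ebp* was called lower without Yme1l siRNA 2 (-0.23, adjusted p = 0.0423) and *Mylip* higher without Yme1l siRNA 3 (0.35, adjusted p = 0.045). *Sc5d* was not called with upper-quartile factors (-0.32, adjusted p = 0.0577) or library totals (-0.28, adjusted p = 0.0746). The causes were not tested.

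The deviations of samples with the same replicate number correlated by 0.04, 0.12 and 0.19 for numbers 1, 2 and 3. Those of samples with different numbers correlated by -0.18 to 0.09. Each Yme1l siRNA library correlated best with the Scr library of its number, but weakly. No pairing is given in the sources used here, and these values cannot settle whether the numbers pair the cultures. With the replicate block, 32 members were called lower and 5 higher, with *Fasn* lower (-0.24, adjusted p = 0.0369) and *Npc2* higher (0.45, adjusted p = 0.0013) among them. With 3 cultures per group and few counts for *Nr1h3* and *Abcg1*, small changes in these genes could not be resolved.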
